A study of Mus musculus with 34 samples.

Results

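Dendritic cells are the leukocytes that take up antigen in tissues and present it to T cells. They are usually divided into conventional type 1 cells (cDC1), which cross-present antigen from dead cells, conventional type 2 cells (cDC2), which mainly prime helper T cells, and plasmacytoid cells (pDC), which release type I interferon when they sense nucleic acids. All of them depend on the receptor tyrosine kinase Flt3 and its ligand Flt3l, and each subset is kept by its own transcription factors. The 8 genes described here mark these cells: the receptor Flt3, the transcription factors Zbtb46, Irf8 and Batf3, the cDC1 proteins Clec9a and Wdfy4, the pDC receptor Siglech, and Sirpa, which separates cDC2 from cDC1. They were chosen by name out of 32098 genes quantified in each table, and each had 1 row in both tables. In GRCm38 coordinates of GENCODE M21, where all 8 are protein-coding, Flt3 (ENSMUSG00000042817.15) lies at chr5:147330741-147400489, Zbtb46 (ENSMUSG00000027583.13) at chr2:181387762-181459426 and Wdfy4 (ENSMUSG00000051506.16) at chr14:32959547-33185508, all on the minus strand. On the plus strand lie Irf8 (ENSMUSG00000041515.9, chr8:120736358-120756694), Batf3 (ENSMUSG00000026630.9, chr1:191097847-191108945), Clec9a (ENSMUSG00000046080.17, chr6:129408862-129424763), Sirpa (ENSMUSG00000037902.18, chr2:129592835-129632228) and Siglech (ENSMUSG00000051504.18, chr7:55768178-55778925).

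The study fed male C57BL/6J mice a high fat diet (HFD) with 60% of its energy from fat or a control diet (CHOW, in either of 2 formulations that the labels do not tell apart), beginning at 6 weeks of age. Visceral fat was dissociated with collagenase, the floating adipocytes were taken off, red cells were lysed and the pellet, the stromal vascular fraction (SVF), was sequenced in bulk. After 8 weeks (age 14 weeks) there were 4 CHOW and 6 HFD libraries, after 20 weeks (age 26 weeks) 5 and 6, and after 34 weeks (age 40 weeks) 7 and 6. The pellet was not sorted, so macrophages, other leukocytes, fibroblast-like progenitors, endothelial and mesothelial cells contribute to every value.

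Expression was given as TPM (length-normalised transcript abundance, scaled to the same total in every library), which corrects for transcript length and allows levels of different genes to be compared. The markers of SVF were present in all groups: the summed level of 9 leukocyte genes ran from 547 to 3110 TPM per library and that of 6 progenitor genes from 1924 to 7103 TPM, while 7 adipocyte genes still summed to between 2694 and 29822 TPM. Read depth is unknown from TPM values, so no interval for counting error can be given. The labels do not say that each library came from its own mouse, and the p-values therefore measure the spread between libraries. A few libraries stood apart: HFD 8 week replicate 3 carried 123060 TPM of seminal vesicle transcripts, HFD 20 week replicate 5 carried 13112 TPM of germ cell transcripts, and CHOW 34 week replicate 6 held the 29822 TPM of adipocyte transcripts and the 547 TPM of leukocyte transcripts. Haemoglobin transcripts (4 genes) remained in every library despite the lysis of red cells, from 7082 to 267366 TPM, the highest being HFD 8 week replicate 6. CHOW 20 week replicate 5 held 129729 TPM of them, the most of its group. HFD 8 week replicate 3 was the lowest of its group for 6 of the 8 dendritic cell genes and CHOW 34 week replicate 6 for 7 of the 8, Zbtb46 being the exception in the latter.

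Siglech, the pDC gene, showed the clearest difference between the diets, and its promoter is shown for that reason. The 300 bases of the RefSeq promoter window (GRCm38.p6, chr7:55767934-55768233, plus strand, 250 bases before to 50 after the start site) are printed 5′ to 3′, with E-boxes in capitals. An E-box (CANNTG) is the kind of short motif that E proteins such as Tcf4, the factor that pDC require, can read.

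Siglech promoter: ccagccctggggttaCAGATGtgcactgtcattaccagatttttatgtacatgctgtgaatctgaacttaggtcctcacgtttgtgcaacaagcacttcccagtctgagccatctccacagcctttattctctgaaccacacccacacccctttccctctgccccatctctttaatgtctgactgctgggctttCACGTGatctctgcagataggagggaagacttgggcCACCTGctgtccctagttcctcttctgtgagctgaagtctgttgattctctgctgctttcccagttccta

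The window held 3 E-boxes, whose first bases lay at -235, -56 and -20 from the start site, itself counted as 0. The match is no sign of use, since 72.3% of 32851 promoter windows of the same length held at least 1 E-box. On the minus strand the window also held 1 GAGGAA, a PU.1-like motif found in 28.3% of the windows on either strand, and these motifs did not overlap. Of the 8 genes, 7 had a promoter entry and Sirpa had none. The AP-1 motif TGANTCA, the kind of element that Batf3 reads with a Jun partner, was found in the windows of these 7 genes only for Zbtb46, against 7.81% of all windows.

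Diet changed 2 of the 8 genes after 20 weeks and none after 8 or 34 weeks at an adjusted p under 0.05. At 20 weeks Siglech fell on HFD and Sirpa rose (limma on log2(TPM + 1), p adjusted over 16808 genes). Across all genes at this time 9.32% were called higher and 4.99% lower on HFD, so 1 of 8 in either direction is near the share in the whole table. The median log2 fold change of the 8 genes was -0.28, against 0.08 for all genes, and 5 of the 8 were below 0. Markers of other cells moved with this comparison. At 20 weeks 4 of 4 haemoglobin genes fell (summed level 27289 to 129729 TPM on CHOW, 12596 to 30381 TPM on HFD) and so did 5 of 5 mesothelial genes (174 to 582 TPM, 56.6 to 178 TPM), while 5 of 5 mast cell genes rose (355 to 512 TPM, 458 to 2064 TPM). Of 10 germ cell genes 1 rose, with a list median of 3.22 on the log2 scale. Their part in the calls was not tested. With the table rescaled without haemoglobin, germ cell, seminal vesicle and immunoglobulin genes the log2 fold change was -1.90 for Siglech and 1.14 for Sirpa. This rescaling left the mesothelial and mast cell genes in. At 8 weeks 0 of 8 were called by limma, 2 having an unadjusted p under 0.05, while 0% of all genes were called higher and 0.0238% lower. Of all 16808 genes 1630 had an unadjusted p under 0.05 at 8 weeks. At 34 weeks limma again called 0 of 8, with 2 at an unadjusted p under 0.05, where 0.243% of 13982 genes were called higher and 0% lower. Of these 13982 genes 1848 had an unadjusted p under 0.05. In bulk tissue, fewer cells of a type and less RNA per cell cannot be told apart, and this holds for each result given here.

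**Figure D1:**
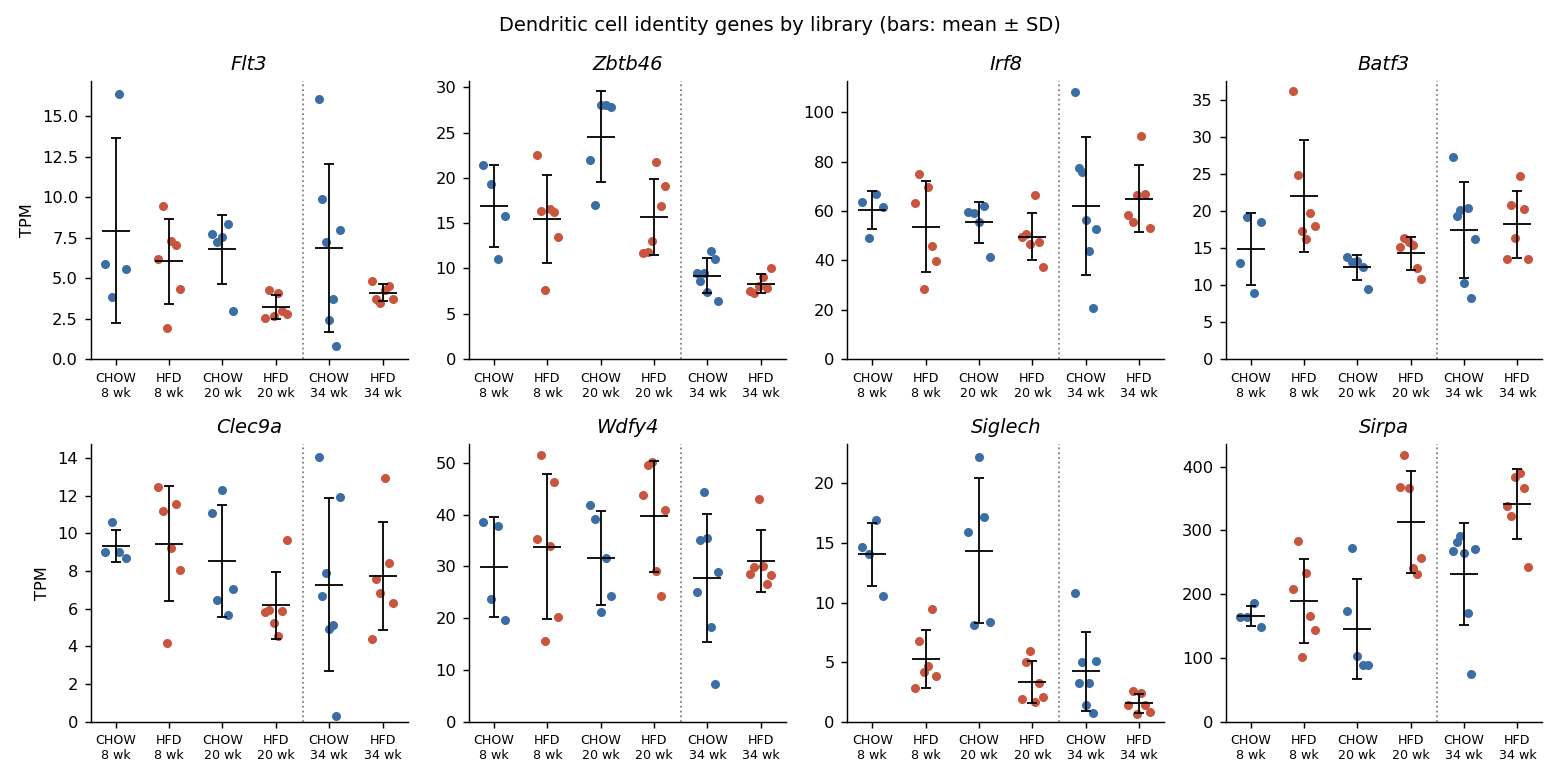
TPM of the 8 dendritic cell genes in each of the 34 libraries (points, CHOW in blue and HFD in red), with the mean and SD of each group (bars) and a dotted line between the 2 separately processed tables. All 6 HFD libraries lie below all CHOW libraries for Siglech at 8 and at 20 weeks, and Sirpa reaches 418 TPM on HFD at 20 weeks.

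Siglech encodes a sialic acid-binding receptor of pDC that signals through the adaptor DAP12. At 20 weeks it stood at 15.9, 8.09, 22.3, 17.2 and 8.40 TPM in the CHOW libraries, and on HFD the lowest, median and highest were 1.69, 2.69 and 5.94 TPM. The groups did not overlap: all 6 HFD libraries were below all 5 CHOW libraries. The means were 3.33 ± 1.77 TPM (SD, n = 6) on HFD and 14.4 ± 6.07 TPM (SD, n = 5) on CHOW, a ratio of 0.232. The log2 fold change of Siglech was -1.83 (SE 0.30, 95% interval -2.45 to -1.20, limma adjusted p = 0.000532).

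At 8 weeks, too, the libraries of the 2 diets did not overlap for Siglech. There Siglech stood at 14.7, 14.1, 16.96 and 10.6 TPM on CHOW and at 2.80, 4.44 and 9.42 TPM (lowest, median and highest of 6) on HFD. Again no HFD library reached the lowest CHOW library, and the mean was 5.28 ± 2.42 TPM (SD, n = 6) against 14.1 ± 2.64 TPM (SD, n = 4). The share of all genes without such overlap was not counted at 8 or 20 weeks. The log2 fold change of Siglech was -1.33 (SE 0.32), but it did not pass the correction over all genes (limma adjusted p = 0.138). The change in the diet effect from 8 to 20 weeks was -0.50 (95% interval -1.41 to 0.41, limma adjusted p = 0.603), so the effects at the 2 times were not shown to differ. Without HFD 8 week replicate 6, the library richest in haemoglobin transcripts, the 8 week value of Siglech was -1.27. Neutrophil genes had lower values on HFD along with Siglech. At 8 weeks limma called 0 of 6, all 6 having an unadjusted p under 0.05 (median log2 fold change -1.79), as had 1630 of all 16808 genes. The neutrophil sum ran from 123 to 2119 TPM on CHOW and from 69.2 to 471 TPM on HFD. At 20 weeks 2 of 6 fell (median -1.51), where 4.99% of all genes fell. The sums were 224 to 1437 TPM on CHOW and 36.7 to 516 TPM on HFD. The part of neutrophils in the Siglech difference was not tested.

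After 34 weeks Siglech was low on both diets. The lowest, median and highest CHOW values were 0.734, 3.29 and 10.8 TPM and those on HFD 0.646, 1.40 and 2.60 TPM. The groups overlapped, with 1 HFD library below all CHOW libraries, and the log2 fold change of -0.86 (SE 0.38) did not pass the correction (limma adjusted p = 0.351). The 34 week libraries were processed as a separate table, and no level was tested across the tables. Within the 8 and 20 week table the order of the mean Siglech levels was HFD at 20 weeks, HFD at 8 weeks, CHOW at 8 weeks and CHOW at 20 weeks, and of these neighbours only HFD and CHOW at 8 weeks did not overlap.

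The other pDC genes moved less uniformly than Siglech. Of 16 listed genes, all of them tested, 2 fell and 1 rose at 20 weeks, where 4.99% of all genes fell and 9.32% rose. The median log2 fold change of the list was -0.37, against 0.08 for all genes. Tlr9, the endosomal sensor of CpG DNA, went from 20.98 ± 2.13 TPM (SD, n = 5) on CHOW to 6.21 ± 1.02 TPM (SD, n = 6) on HFD (log2 fold change -1.62, SE 0.21, limma adjusted p = 6.2e-05). Irf7, the factor that drives type I interferon genes, went from 74.5 ± 18.6 TPM (SD, n = 5) to 31.4 ± 6.57 TPM (SD, n = 6) (log2 fold change -1.21, SE 0.18, limma adjusted p = 0.000241). The gene that rose was Runx2, a factor of pDC egress from bone marrow and of bone-forming cells, by 0.97 (SE 0.31, limma adjusted p = 0.0409), from a low level of 1.70 ± 0.75 TPM (SD, n = 5), and this call was lost with 4 of 11 alternative settings and kept in 4 of 11 fits that left out 1 library. Tlr9 and Irf7 are also made by B cells and macrophages. At 20 weeks 0 of 7 B cell genes were called by limma, with 0 at an unadjusted p under 0.05, and their summed level ranged from 46.2 to 107 TPM on CHOW and from 27.2 to 115 TPM on HFD, while 4 of 10 macrophage genes rose (values with Sirpa). The part of these cells in the pDC genes was not tested.

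Sirpa encodes the inhibitory receptor that binds the "do not eat me" signal Cd47. Besides cDC2 it is abundant on macrophages and monocytes, and it was the highest of the 8 genes in every group mean. At 20 weeks it stood at 173, 272, 103, 89.3 and 89.0 TPM on CHOW, and the lowest, median and highest HFD values were 232, 311 and 418 TPM. The groups overlapped through CHOW replicate 2 alone, the library at 272 TPM, and 3 of 6 HFD libraries were above all CHOW libraries. The mean was 314 ± 80.0 TPM (SD, n = 6) on HFD and 145 ± 78.8 TPM (SD, n = 5) on CHOW, and the log2 fold change was 1.21 (SE 0.28, 95% interval 0.64 to 1.79, limma adjusted p = 0.00691).

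Sirpa differed less at the other times. At 8 weeks CHOW libraries read 164, 164, 186 and 148 TPM and HFD libraries ran from 101 through a median of 187 to 283 TPM, so the HFD range enclosed the CHOW range. At 34 weeks CHOW libraries ran from 74.8 through 267 to 291 TPM and HFD libraries from 243 through 352 to 390.4 TPM. Of the 6 HFD libraries 5 were above all CHOW libraries at 34 weeks, and the log2 fold change of 0.66 (SE 0.28) did not pass the correction (limma adjusted p = 0.338). The diet effect on Sirpa was 1.10 larger at 20 than at 8 weeks on the log2 scale (SE 0.41, unadjusted p = 0.0134 in limma), which did not pass the correction (limma adjusted p = 0.289). Without CHOW 34 week replicate 6, the library poor in leukocyte transcripts, the 34 week value of Sirpa was 0.41 (limma adjusted p = 0.293).

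Some macrophage genes moved with Sirpa. At 20 weeks 4 of 10 macrophage genes rose on HFD and none fell: Cd68 by 1.43, Adgre1 (F4/80) by 1.38, Lgmn by 0.98 and Lyz2 by 0.88 on the log2 scale. Of all genes 9.32% were called higher and 4.99% lower. The calls of Lgmn and Lyz2 were each kept in 5 of 11 fits that left out 1 library. Their summed level ran from 4228 through a median of 4589 to 10117 TPM on CHOW, the highest being CHOW replicate 2, and from 7293 through 10740 to 13205 TPM on HFD. No macrophage gene was at 0 throughout any group. When each library was expressed relative to the mean log2 level of these macrophage genes, a setting added after the data were seen, the log2 fold change of Sirpa was 0.55 (limma adjusted p = 0.00989) and that of Siglech was -2.49 (limma adjusted p = 0.000102). The part of macrophage number in the Sirpa difference was not tested further.

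**Figure D2:**
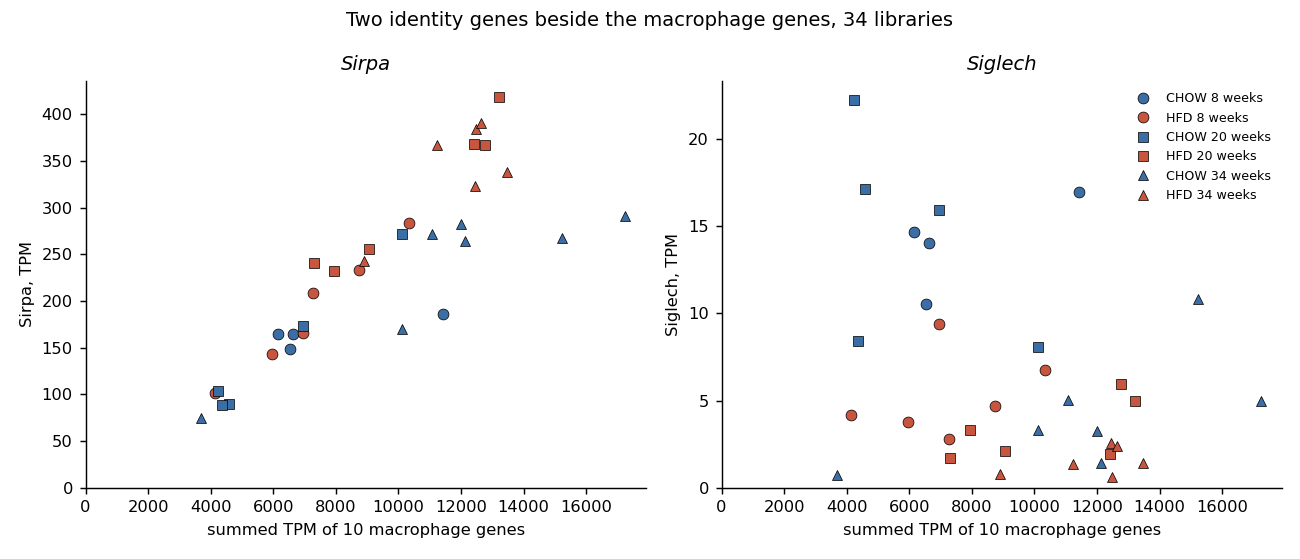
TPM of Sirpa (left) and Siglech (right) against the summed TPM of 10 macrophage genes in 34 libraries, CHOW in blue and HFD in red, with circles for 8, squares for 20 and triangles for 34 weeks. CHOW 20 week replicate 2, the blue square at 10117 TPM of macrophage transcripts, has the 272 TPM of Sirpa and the 8.09 TPM of Siglech, the highest and the lowest of its group.

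No other gene of the Sirpa axis passed the test between the diets. Cd47, its ligand, had a mean of 139 ± 25.9 TPM (SD, n = 5) on CHOW and of 139.7 ± 14.4 TPM (SD, n = 6) on HFD at 20 weeks, a log2 fold change of 0.02 (95% interval -0.29 to 0.33). Of 7 listed genes, including the related receptors Sirpb1a, Sirpb1b and Sirpb1c and the phosphatases Ptpn6 and Ptpn11 that Sirpa recruits, limma called 0 at 8, 20 and 34 weeks, with 0 at an unadjusted p under 0.05 each time. Sirpa shares much of its extracellular sequence with the Sirpb1 genes, so the split of reads among them is uncertain.

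Flt3, the growth factor receptor of dendritic cell precursors and mature dendritic cells, did not pass the test at 20 weeks. The CHOW libraries stood at 7.74, 7.22, 7.54, 8.35 and 2.99 TPM and the HFD libraries ran from 2.53 through 2.89 to 4.27 TPM. Replicate 5 alone brought the CHOW range down into that of HFD, and 4 of 6 HFD libraries were below all CHOW libraries. The log2 fold change of Flt3 was -0.84 (SE 0.32, limma adjusted p = 0.0833), and without CHOW 20 week replicate 5 it was -1.06 (limma adjusted p = 0.0469). No other fit of this comparison that left out 1 library called Flt3. Flt3 also passed in 7 of 12 other settings, among them median-ratio scaling (limma adjusted p = 0.0288) and quantile normalization (limma adjusted p = 0.0231).

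At 8 weeks Flt3 varied on both diets, and at 34 weeks mainly among CHOW libraries. The CHOW libraries of 8 weeks read 5.88, 3.84, 16.4 and 5.57 TPM, against 1.93, 6.59 and 9.45 TPM (lowest, median and highest) on HFD. At 34 weeks CHOW ran from 0.82 through 7.24 to 16.03 TPM, while HFD was confined to 3.47 to 4.83 TPM with a median of 4.00 TPM. The diets overlapped at both times. Flt3l, the ligand, which stromal cells and T cells make, was not called in any comparison, and its CHOW values at 20 weeks were spread from 18.99 to 202 TPM, against 22.2 to 86.8 TPM on HFD.

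Zbtb46, the factor that separates conventional dendritic cells from monocyte-derived cells, read 21.98, 16.9, 28.0, 28.0 and 27.8 TPM on CHOW at 20 weeks. On HFD it ran from 11.7 through 14.9 to 21.7 TPM, with 4 of 6 libraries below all CHOW libraries. The log2 fold change of Zbtb46 was -0.63 (SE 0.23, limma adjusted p = 0.0698), and without CHOW 20 week replicate 2, the lowest of the CHOW libraries, it was -0.75 (limma adjusted p = 0.0388). No other fit of this comparison that left out 1 library called Zbtb46. Zbtb46 passed in 7 of 12 other settings, and without the 3 libraries that stood apart its limma adjusted p was 0.038. Endothelial cells also express Zbtb46. At 20 weeks 0 of 7 endothelial genes were called by limma, with 0 at an unadjusted p under 0.05. Their median log2 fold change was -0.21, against 0.08 for all genes, and 5 of 7 were below 0. Their summed level ran from 889 to 1207 TPM on CHOW and from 763 to 1513 TPM on HFD. The part of endothelial cells in the Zbtb46 difference was not tested.

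The CHOW level of Zbtb46 at 20 weeks was the highest of the 4 groups of that table. At 8 weeks CHOW read 21.4, 19.3, 11.1 and 15.8 TPM and HFD ran from 7.62 through 16.3 to 22.5 TPM. The difference of Zbtb46 between 20 and 8 weeks on CHOW, 0.53 on the log2 scale (SE 0.25), had an unadjusted p of 0.0494 in limma and did not pass the correction (limma adjusted p = 0.397). At 34 weeks the diets overlapped fully, from 6.46 through 9.53 to 11.9 TPM on CHOW and from 7.31 through 8.00 to 10.0 TPM on HFD.

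Irf8, the factor that both cDC1 and pDC need and that B cells and macrophages also make, overlapped between the diets at each time. At 20 weeks it read 59.5, 59.1, 55.4, 62.2 and 41.4 TPM on CHOW and from 37.2 through 48.3 to 66.4 TPM on HFD (log2 fold change -0.17, SE 0.20, limma adjusted p = 0.627). The CHOW values at 8 weeks were 63.8, 49.2, 66.7 and 61.6 TPM, and HFD ran from 28.4 through 54.7 to 75.2 TPM. At 34 weeks CHOW ran from 20.8 through 56.5 to 108 TPM and HFD from 53.0 through 62.4 to 90.3 TPM. The 95% interval of the 20 week difference in Irf8 was -0.59 to 0.26.

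Batf3, the partner of Irf8 that holds cDC1 identity, passed the test at no time. At 8 weeks CHOW libraries read 12.97, 19.2, 8.95 and 18.6 TPM and HFD ran from 16.3 through 18.9 to 36.2 TPM, with 3 of 6 HFD libraries above all CHOW libraries. The log2 fold change of 0.54 (SE 0.22) did not pass the correction (limma adjusted p = 0.415). At 20 weeks Batf3 read 13.8, 13.1, 13.2, 12.4 and 9.49 TPM on CHOW and from 10.8 through 15.3 to 16.3 TPM on HFD. Here 4 of 6 HFD libraries were above all CHOW libraries, but the difference was small (log2 fold change 0.19, SE 0.20, limma adjusted p = 0.573), and it was -0.10 relative to the leukocyte genes and -0.47 relative to the macrophage genes. At 34 weeks the ranges were 8.27 to 27.3 TPM (median 19.3) on CHOW and 13.5 to 24.8 TPM (median 18.3) on HFD.

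Clec9a, the receptor by which cDC1 recognise actin exposed on dead cells, was among the 3 lowest of the genes in level. At 20 weeks it read 11.1, 6.48, 12.3, 5.68 and 7.06 TPM on CHOW and from 4.53 through 5.87 to 9.63 TPM on HFD, with 2 HFD libraries below all CHOW libraries. The log2 fold change of Clec9a was -0.38 (SE 0.23, limma adjusted p = 0.276). At 8 weeks the 4 CHOW libraries lay close together at 8.99, 10.6, 9.03 and 8.68 TPM, and HFD spread around them from 4.16 through 10.2 to 12.5 TPM. At 34 weeks CHOW ran from 0.305 through 6.70 to 14.1 TPM and HFD from 4.38 through 7.22 to 12.9 TPM.

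Wdfy4, which cDC1 need for cross-presentation and which B cells also make, had overlapping diets at every time. At 20 weeks it read 42.0, 39.1, 21.1, 31.6 and 24.2 TPM on CHOW and from 24.3 through 42.3 to 50.2 TPM on HFD (log2 fold change 0.32, SE 0.29, limma adjusted p = 0.487), and its sign turned, to -0.34, relative to the macrophage genes. At 8 weeks CHOW read 38.5, 23.7, 37.8 and 19.7 TPM and HFD ran from 15.7 through 34.6 to 51.5 TPM. At 34 weeks the ranges were 7.32 to 44.3 TPM (median 28.9) on CHOW and 26.5 to 42.9 TPM (median 29.2) on HFD. Of 7 B cell genes at that time all 7 had an unadjusted p under 0.05 in limma, as had 1848 of all 13982 genes. After correction 1 of the 7, Cd79a, rose, where 0.243% of all genes rose. The B cell sum ran from 26.2 to 47.8 TPM on CHOW and from 52.6 to 93.0 TPM on HFD. The part of B cells in Wdfy4 and Irf8 was not tested.

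**Figure D3:**
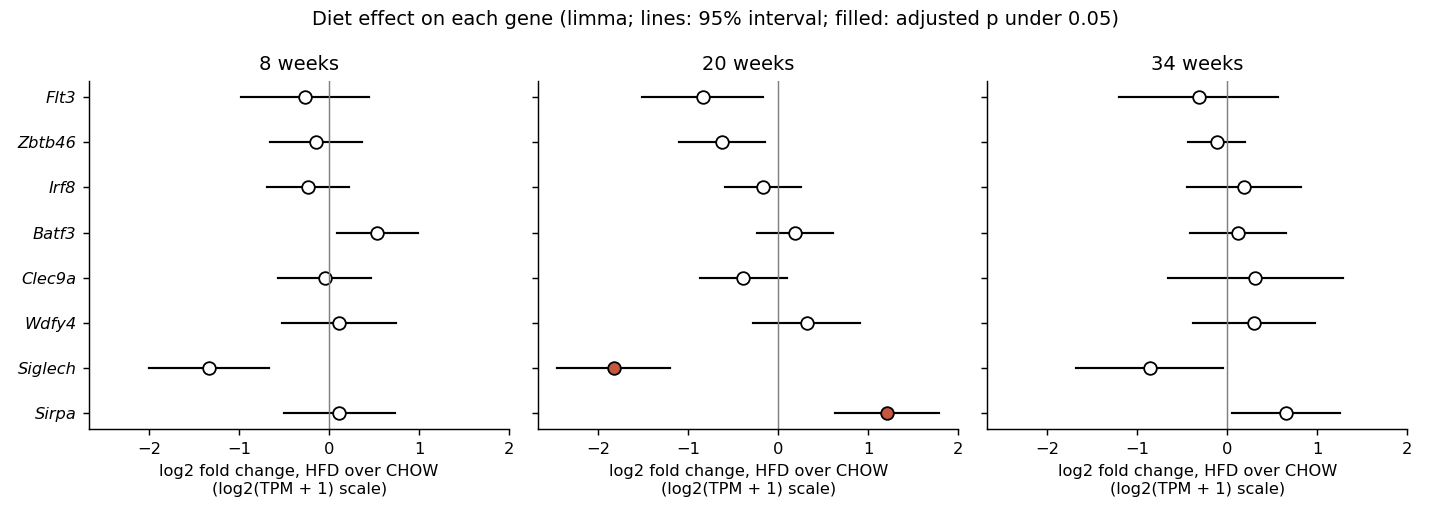
Log2 fold change of HFD over CHOW for each of the 8 genes after 8, 20 and 34 weeks, on the log2(TPM + 1) scale, with 95% intervals from limma (lines); filled points have an adjusted p under 0.05. Siglech is below 0 and Sirpa above 0 at all 3 times, and only their 20 week points, at -1.83 and 1.21, are filled.

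None of the 8 genes passed the test between 8 and 20 weeks on the same diet. From 8 to 20 weeks on CHOW limma called 0 of 8, with 1 at an unadjusted p under 0.05, where 0.458% of all genes rose and 0.155% fell. Of all 16808 genes 2104 had an unadjusted p under 0.05 there. On HFD, where 6.12% of all genes rose and 2.65% fell after correction, limma called 0 of 8. An unadjusted p under 0.05 was reached by 4571 of all 16808 genes and by 4 of the 8. Those 4 were Batf3 (log2 fold change -0.55, limma adjusted p = 0.0724), Clec9a (-0.50, limma adjusted p = 0.145), Flt3 (-0.65, limma adjusted p = 0.176) and Sirpa (0.76, limma adjusted p = 0.0717). Of the 6 HFD libraries of 20 weeks, 5 lay below all HFD libraries of 8 weeks for Batf3, and 3 lay above all of them for Sirpa. Siglech, at -0.55 (limma adjusted p = 0.22), had 3 HFD libraries of 20 weeks below all those of 8 weeks. The diet by time interaction was called for 0 of 8 by limma, with 1 (Sirpa) at an unadjusted p under 0.05, and for 0.161% of all genes in the higher and 0.137% in the lower direction. Of all 16808 genes 2318 had an unadjusted p under 0.05 for this interaction.

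The subset markers outside the 8 genes were counted in lists for each subset. Over all genes 9.32% were called higher and 4.99% lower on HFD at 20 weeks. Of 12 further cDC1 genes 10 were tested at 20 weeks, of which 1 rose and 1 fell, and the list median of 0.07 was next to the 0.08 of all genes. Cadm1, an adhesion molecule of cDC1 that many other cells also make, rose from 6.90 ± 4.11 TPM (SD, n = 5) to 54.8 ± 14.8 TPM (SD, n = 6), a log2 fold change of 2.91 (SE 0.32, limma adjusted p = 1.57e-05). Cd24a, an adhesion protein shared with B cells, neutrophils and epithelia, fell by 2.04 on the log2 scale (SE 0.28, limma adjusted p = 0.000116). Xcr1, the chemokine receptor found almost only on cDC1, read between 0.404 and 1.52 TPM in all libraries of 20 weeks (log2 fold change -0.39, SE 0.16, limma adjusted p = 0.0963). The 20 week log2 fold changes of the cDC1 genes Clec9a, Wdfy4 and Batf3 lay between -0.38 and 0.32.

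Of 10 further cDC2 genes 5 fell at 20 weeks, 0 rose and the other 5 did not pass the test, with a median log2 fold change of -0.66. Among all genes 4.99% fell and 9.32% rose. Cd209a, a DC-SIGN lectin of cDC2 and monocyte-derived cells, fell from 60.3 ± 12.3 TPM (SD, n = 5) to 7.03 ± 1.90 TPM (SD, n = 6), a log2 fold change of -2.95 (SE 0.24, limma adjusted p = 3.42e-07). Ltb (lymphotoxin beta) fell by 1.91 on this scale. The lectins Mgl2 and Clec10a, which resident macrophages also carry, changed by -1.86 and -0.90. The fifth, Irf4, the factor required by cDC2, changed by -0.85 (SE 0.23, limma adjusted p = 0.0178), and its call was lost in 2 of 11 fits that each left out 1 library. These genes went the opposite way to Sirpa. The monocyte genes Ly6c2 and Ccr2 moved with them, at log2 fold changes of -1.38 (SE 0.35, limma adjusted p = 0.0134) and -1.31 (SE 0.30, limma adjusted p = 0.00664). Their part in the cDC2 genes was not tested.

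Genes of dendritic cell maturation were mixed at 20 weeks, with 1 of 13 tested genes higher and 2 lower, where 9.32% of all genes were called higher and 4.99% lower. Cd83 rose by 1.19 (SE 0.26, limma adjusted p = 0.00495), while the chemokine Ccl17 fell by 2.47 (SE 0.47, limma adjusted p = 0.00193) and the costimulatory ligand Cd86 by 1.02 (SE 0.22, limma adjusted p = 0.00441). Of 16 genes of dendritic cell development 1 was called, Batf, a relative of Batf3, which fell by 0.91 (SE 0.21, limma adjusted p = 0.00689). Of 7 antigen presentation genes Itgax (CD11c), shared with adipose macrophages, rose by 2.94 (SE 0.53, limma adjusted p = 0.00116), and the peptide transporter Tap1 fell by 0.77 (SE 0.17, limma adjusted p = 0.00587).

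**Figure D4:**
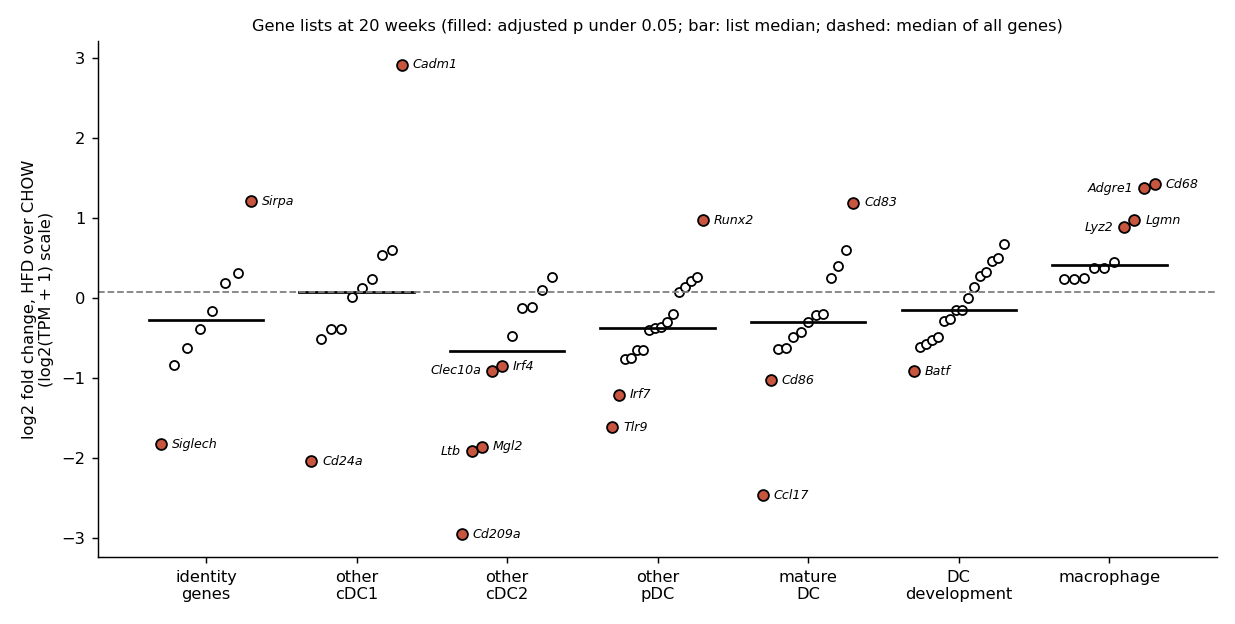
Log2 fold change of HFD over CHOW at 20 weeks for the tested genes of 7 lists (points, filled and named where the limma adjusted p was under 0.05), with each list's median (bar) and the median of all genes (dashed, 0.08). Siglech and Sirpa are the named points among the 8 identity genes, 5 cDC2 genes are filled below 0, and 4 macrophage genes are filled above 0.

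Over the 7 lists of further dendritic cell genes limma called 0 of 79 at 8 weeks. Of the 79, 10 had an unadjusted p under 0.05, as had 1630 of all 16808 genes. At 20 weeks limma called 16 of the 79, of which 4 rose and 12 fell. Among all genes 0% rose and 0.0238% fell at 8 weeks, and 9.32% rose and 4.99% fell at 20 weeks. At 34 weeks Cadm1 alone was called among the 74 further dendritic cell genes tested, rising by 2.51 (SE 0.47, limma adjusted p = 0.0481). That call was kept in 4 of 11 other settings. Of all genes at 34 weeks 0.243% were called higher and 0% lower. From 8 to 20 weeks 3 of the 79 rose on CHOW, and on HFD 8 rose and 10 fell. Of all genes 0.458% rose and 0.155% fell on CHOW, and 6.12% rose and 2.65% fell on HFD. On HFD the log2 fold change over this time was -2.88 for Mgl2, -2.14 for Cd209a and 2.40 for Cadm1. Cd40 and Il12b, a receptor and a cytokine subunit of activated dendritic cells, rose over the same time by 2.17 and 2.12 on HFD and by 1.72 and 1.80 on CHOW. Of the 13 tested maturation genes 3 rose and 2 fell on HFD over this time, among them Cd83 at 1.30 and Ccl17 at -1.58. The Ccl17 call was kept in 9 of 12 other settings and in 6 of 12 fits that left out 1 library. The Il12b call on CHOW (limma adjusted p = 0.0469) was kept in 9 of 12 other settings and in 3 of 9 fits that left out 1 library. Of these lists limma called 3 genes for the diet by time interaction: Cd209a (-2.60, adjusted p = 0.00188), Mgl2 (-2.35, adjusted p = 0.0317) and Cadm1 (2.21, adjusted p = 0.0453). This interaction was called for 0.161% of all genes in the higher and 0.137% in the lower direction. With 1 library left out Cd209a was called in 21 of 21 fits, Mgl2 in 9 and Cadm1 in 4, and Cadm1 was called in 6 of 11 other settings.

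The genes whose pattern was most like each of the 8 were taken by Pearson's r of log2(TPM + 1) over the 21 libraries of 8 and 20 weeks, a description in which the points share the differences between groups and in overall composition. Sirpa was followed most closely by Akr1a1 (r = 0.974, Spearman's rho = 0.969) and by Tyrobp (r = 0.974, rho = 0.958), which encodes the adaptor DAP12, and over the 13 libraries of 34 weeks Tyrobp still had r = 0.951. Siglech was nearest to Ctse (r = 0.863, rho = 0.849), Mmp9, a gene of the neutrophil list (r = 0.853, rho = 0.834), and Tlr9 (r = 0.847, rho = 0.855), and at 34 weeks these had r of 0.186, 0.522 and 0.485. The nearest gene was Notch2 for Flt3 (r = 0.892, rho = 0.852), H2-Q6 for Zbtb46 (r = 0.942, rho = 0.945), Tet3 for Irf8 (r = 0.858, rho = 0.803), Aatk for Batf3 (r = 0.857, rho = 0.834), Dlg1 for Clec9a (r = 0.822, rho = 0.784) and Arpc4 for Wdfy4 (r = 0.879, rho = 0.826). At 34 weeks their r was 0.527, 0.140, 0.752, -0.338, 0.558 and 0.710, in the same order.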

How the data were processed

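The authors deposited 2 tables of TPM values, one for 8 and 20 weeks (21 libraries) and one for 34 weeks (13 libraries); the submitters' processing notes name FastQC, MultiQC, Trimmomatic and Salmon and the mm10 build. Counts were not used here. Ensembl identifiers, version dropped, were matched to symbols (31791 of 32098 genes). A gene entered the tests when 4 libraries (8 and 20 weeks) or 6 (34 weeks) reached 1 TPM. Testing used limma 3.58.1 (R 4.3.3) on log2(TPM + 1), a scale that understates the changes of low genes, with 1 fit per table, a mean-variance trend and Benjamini-Hochberg adjustment over all tested genes at 0.05. All 8 genes passed this filter in both tables; it uses all libraries together. Fold changes are given for all 8 genes in the 20 week diet comparison and elsewhere at an unadjusted p under 0.1. The diet by time interaction of Siglech was given as an exception. From other dendritic cell lists at most 4 called genes with the largest change were named per comparison, plus Flt3l, Cd47 and Xcr1; Irf4 was named as an exception after its value was seen. Per gene, the 3 most correlated genes with a mean of 2 TPM or more were looked up. The fit was tested on simulated data. The genes and lists were chosen with earlier results of these data known. Alternatives covered pseudocount, filters, scaling, weights, groups fitted, libraries left out and a replicate block. The result of 1 further listed gene is not reported here, so 2 monocyte genes are given without the counts of their list.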

Additional observations from a re-analysis of the deposited data

Results flagged for a closer look

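A library was singled out where its gap to the nearest other library was large against the range of its group, by Dixon's criterion, which chance alone meets in about 1 in 20 groups. Of 48 groups of values, 7 met it. CHOW 20 week replicate 5 was far below the rest of its group for Flt3 at 2.99 TPM, for Batf3 at 9.49 TPM and for Irf8 at 41.4 TPM. CHOW 34 week replicate 6, the library rich in adipocyte transcripts, was far below its group for Clec9a at 0.305 TPM and for Sirpa at 74.8 TPM. HFD 20 week replicate 6 was far above its group for Clec9a at 9.63 TPM. HFD 34 week replicate 3 was far above its group for Wdfy4 at 42.9 TPM.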

How the results depend on the processing

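At 20 weeks the calls of Siglech (adjusted p from 4.69e-05 to 0.00372) and Sirpa (4.67e-05 to 0.0282) were kept in all 12 alternatives and in all 11 fits that left out 1 library. The count of called genes at 20 weeks was 4 under median-ratio scaling, quantile normalization, rescaling without haemoglobin, germ cell, seminal vesicle and immunoglobulin genes, sample quality weights and a fit of the compared groups only, and 6 relative to the macrophage genes, a setting added after seeing the data. The count was 3 relative to the leukocyte genes, without the 3 libraries that stood apart, and without CHOW 20 week replicate 2 or 5. From 8 to 20 weeks on HFD it was 3 under median-ratio scaling, 2 under quantile normalization, rescaling, weights and the replicate block, 1 relative to the leukocyte genes and without the 3 libraries that stood apart, 5 relative to the macrophage genes, and between 0 and 1 with 1 library left out (1 without HFD 8 week replicate 2, 3 or 4). At 34 weeks it was 1 with weights, Siglech at an adjusted p of 0.0411. Calls over all genes moved too. At 20 weeks they numbered 2405 of 16808 in the main fit, 3502 under quantile normalization, 5092 with weights and 6546 relative to the macrophage genes. They were 3627 of 16783 under median-ratio scaling, 2920 of 16895 under rescaling and 2641 of 15565 with only the groups compared. Relative to the leukocyte genes they were 964 of 16808, and without the 3 libraries that stood apart 2496 of 16420. Without CHOW 20 week replicate 2 they were 2534 of 16769, and without CHOW 20 week replicate 5 they were 1263 of 16744. From 8 to 20 weeks on HFD they numbered 1475 of 16808, and 8494 relative to the macrophage genes. They were 2432 of 16783 under median-ratio scaling, 2755 of 16808 under quantile normalization and 2011 of 16895 under rescaling. With weights they were 2073 and with the replicate block 1966. Relative to the leukocyte genes they were 649, and without the 3 libraries that stood apart 1179 of 16420. Without HFD 8 week replicate 2, 3 or 4 they were 1642 of 16750, 1447 of 16755 and 1820 of 16606. At 34 weeks they were 34, and 294 with weights. At 20 weeks Batf3 turned to -0.10 relative to the leukocyte and -0.47 relative to the macrophage genes, and Wdfy4 to -0.34 relative to the latter. These 2 settings subtract 1 value per library from every gene. Every fold change of a comparison therefore moves by the same amount, which turned these signs. The median of all genes at 20 weeks, 0.08, was -0.05 after quantile normalization, -0.21 relative to the leukocyte and -0.59 relative to the macrophage genes. Libraries with the same replicate number had correlations of deviations from -0.105 to 0.214. Differently numbered libraries were not set beside them, so this cannot decide whether the numbers pair the libraries. With the replicate block, Siglech was -1.76 and Sirpa 1.27 at 20 weeks, and 2 of the 8 genes were called there. TPM values give no depth, which limits what can be said of genes near 1 TPM such as Xcr1.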
